A study of Mus musculus with 35 samples.

Results

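The response of the mouse lung to a higher against a lower dose of NRCWE-043, a material known here only by its code name, was measured 24 h after instillation of 54 or 18 µg per mouse. The comparison used the 10 arrays titled with NRCWE-043, 5 at 54 µg and 5 at 18 µg, of 35 arrays in all. All animals were female C57BL/6 mice of 5 to 7 weeks, and each treated animal received 1 instillation into the trachea in 40 µl. The further groups were 5 control arrays at 0 µg and 5 arrays at each of the same doses of NRCWE-044 and NRCWE-045, which served for levels, for the shared estimate of spread and for the test of a difference between materials. Each 2-colour array carried lung RNA in the Cy5 dye beside a reference RNA pooled from mouse cell lines in Cy3, and values are log2 ratios of lung to reference after normalization within the array. Differences were tested with limma, with p-values adjusted by Benjamini-Hochberg over all features. RNA came from random pieces of lung, so a change can reflect fewer or more cells of a type or less or more RNA per cell, and bulk tissue cannot tell these apart. Whether the 5 arrays of a group stand for 5 different mice is not stated in the labels, nor is the vehicle of the controls. The p-values therefore rest on variation between arrays, part of which may be technical.

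When particles reach the alveoli, resident macrophages and epithelial cells release cytokines of the interleukin-1 and interleukin-6 families. These induce acute phase proteins, such as the serum amyloids, in the lung itself as well as in the liver, and they induce chemokines, small secreted ligands that call neutrophils and monocytes through receptors on those cells. Type I interferon signalling is a parallel arm, seen as a set of antiviral genes that switch on together. The airway lining, made up largely of ciliated and secretory club cells, carries its own programmes of motile cilia and detoxifying enzymes.

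Between 18 and 54 µg, 7 of 17 acute phase genes, 3 of 13 CC chemokines, 7 of 25 interferon-response genes and 5 of 19 complement genes rose, and 0 of these lists fell. Without one 18 µg array that stood apart, replicate 5, these counts were 2, 0, 0 and 0. Among the genes that fell were the airway retinal dehydrogenase gene Aldh1a1 and Cfap161, a gene associated with cilia and flagella. With all 10 arrays, 295 of 25534 features (genes, or transcripts of the array design with no gene symbol) passed an adjusted p of 0.05, which is 1.16%. Of these, 234 were higher at 54 µg (0.916% of all features, 188 with a symbol) and 61 were lower (0.239%, 47 with a symbol). Every list count here and below is to be read beside these 2 shares. The lists and their members were chosen with earlier results of these data known, so their counts are descriptions. The median difference was 0.69 on the log2 scale among the features that rose, a fold of 1.61, and -0.62 among those that fell. A difference of at least 2-fold was reached by 40 of the features that rose and by 4 that fell, of which Vps51 and Aldh1a1 carried a symbol. The 5 values at 54 µg lay wholly outside the 5 values at 18 µg for 218 of the 295 features (166 higher, 52 lower), a pattern seen for 3.07% of all features.

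One array stood apart, and most calls of the NRCWE-043 dose step depended on it. The 18 µg replicate 5 had a median correlation of 0.900 with its own group and a median reference (Cy3) signal of 134, against 62.5 to 87 on the other 9 arrays. The 18 µg replicate 10 was next, at a correlation of 0.925, and the remaining 8 arrays lay between 0.947 and 0.965. Replicate 5 held the lowest 18 µg value for 200 of the 234 features that rose (85.5%, against 34.4% of all features) and the highest for 43 of the 61 that fell (70.5%, against 20.5%). Without it, 7 features passed (0.0274%), 5 higher and 2 lower, and all 7 were among the 295. Calls also moved with single 54 µg arrays, to 149 without replicate 9, 81 without 16, 45 without 19 and 136 without 22, while they increased to 448, 524 and 566 without the 18 µg replicates 26, 20 and 33. Without replicate 5, 2235 of all 25534 features had an unadjusted p under 0.05 in limma. All 295 were among these and kept their direction, at adjusted p of 0.0060 to 0.26. The median difference of the 295 was then 0.57 for those that rose and -0.54 for those that fell. They were chosen in a fit that shares all the other arrays, so this is partly fixed by their choice. The genes among the 7 with a symbol were Orm1, Orm2, Arg1, Cd177, Lilr4b and Scube2, of which Cd177 and Lilr4b were picked after their values were seen. On the 4 slides that held both doses, 229 of the 234 rises and 61 of the 61 falls kept their sign on every slide. The features were called on these same arrays, so this agreement is partly fixed by their choice and is not a replication. The share over all features was not taken. With slide as a block 679 features passed, among them 287 of the 295. The split depended on the scaling, since 79.3% of the calls were rises here, 66.7% in the authors' deposited log2 ratios and 59.7% of 759 calls on the Cy5 channel alone. Median centring moved the median of all features to 0.14 and called 6, all of them rises.

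**Figure D1:**
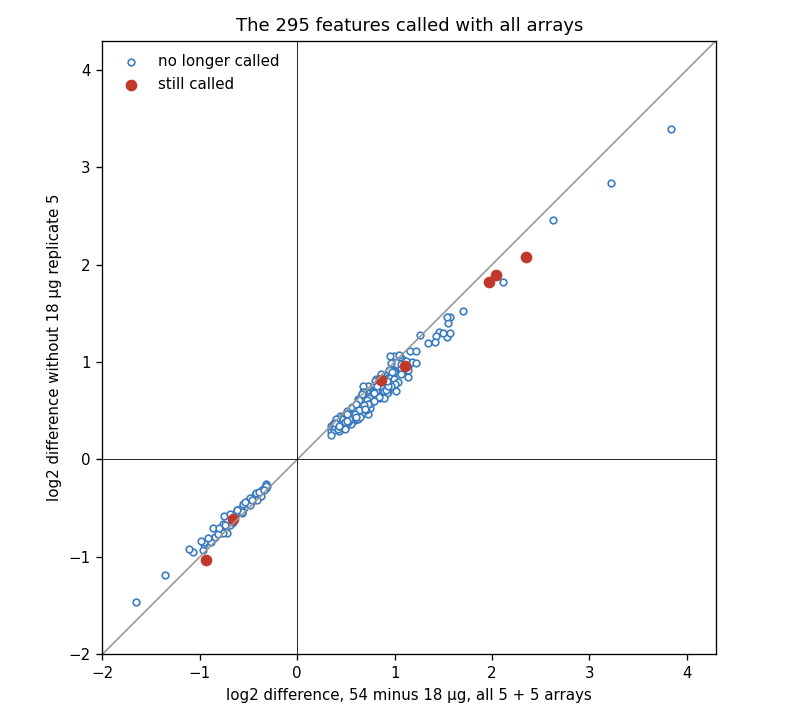
The log2 difference between 54 and 18 µg for the 295 called features, with all arrays on the horizontal axis and without the 18 µg replicate 5 on the vertical axis, both on the log2 scale. All points keep their side of 0, and the 7 filled points are those still called.

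Lung markers were present on these arrays. Of the 8 lung markers, Sftpc, Sftpb, Sftpa1, Ager, Scgb1a1, Cyp2f2 and Marco lay above background on all 10 arrays, Cdh5 on 9, and none was called. Among the markers of other tissues, those of heart muscle and adipose tissue were high on single arrays. The mean log2 ratio over 15 heart muscle genes was 1.82 on the 18 µg replicate 20 and 1.41 on the 54 µg replicate 16, against 0.09 to 0.77 on the other 8 arrays and 0.07 to 2.38 in controls. The mean over 13 adipose genes was 3.33 on the 54 µg replicate 9 and 0.92 to 2.08 elsewhere. Of 7 thymus and lymphoid genes, 7 differences lay above 0, at a median of 0.30 (0.13 without replicate 5). Their mean was 0.97 to 1.70 on the 54 µg arrays, 0.32 to 1.02 on the 18 µg arrays and 0.68 to 1.25 in controls. 0 members of the heart, adipose, skeletal muscle, thymus and lymphoid or red cell lists were called. The part of tissue sampling in the results was not tested.

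The promoters of 6 genes that rose are shown, picked with their letters in view as examples of the acute phase, chemokine and interferon groups and of letters that the transcription factors of these pathways are known to read. Each window spans the start of the gene, with most of its bases before it, and reads 5′ to 3′ on the strand of the gene, from RefSeq on GRCm38.p6. Capitals mark, on either strand, the C/EBP-type letters of acute phase genes (TTGC, 2 bases of any kind, AA), the NF-kB-type letters (GGGA, 4 bases of any kind, CC) or those of the interferon-stimulated response element (GAAA, 2 bases of any kind, GAAA). The first 3 windows belong to acute phase genes.

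Saa1, chr7:46742931-46743230, minus strand: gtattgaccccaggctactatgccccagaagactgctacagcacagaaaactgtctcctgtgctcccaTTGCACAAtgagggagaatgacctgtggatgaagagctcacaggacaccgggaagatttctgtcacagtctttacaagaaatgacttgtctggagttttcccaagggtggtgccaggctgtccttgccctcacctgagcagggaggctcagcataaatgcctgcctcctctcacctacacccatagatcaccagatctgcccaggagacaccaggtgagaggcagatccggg
Saa3, chr7:46715627-46715926, minus strand: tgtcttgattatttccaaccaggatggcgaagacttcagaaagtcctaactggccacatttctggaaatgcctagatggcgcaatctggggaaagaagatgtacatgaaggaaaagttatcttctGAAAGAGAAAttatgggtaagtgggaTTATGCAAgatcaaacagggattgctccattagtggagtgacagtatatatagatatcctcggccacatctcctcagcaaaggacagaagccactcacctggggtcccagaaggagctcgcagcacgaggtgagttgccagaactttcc
Orm2, chr4:63362199-63362498, plus strand: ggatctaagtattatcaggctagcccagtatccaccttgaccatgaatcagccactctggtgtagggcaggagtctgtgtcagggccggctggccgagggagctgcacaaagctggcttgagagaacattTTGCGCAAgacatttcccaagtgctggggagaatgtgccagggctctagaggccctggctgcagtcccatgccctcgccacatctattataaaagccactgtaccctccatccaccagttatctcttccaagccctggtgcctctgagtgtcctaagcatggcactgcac

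Windows of Saa1 and Orm2 hold C/EBP-type letters alone, and that of Saa3 holds them together with the interferon-type letters. The other 3 windows belong to a chemokine gene and to genes of the interferon response.

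Cxcl10, chr5:92348840-92349139, minus strand: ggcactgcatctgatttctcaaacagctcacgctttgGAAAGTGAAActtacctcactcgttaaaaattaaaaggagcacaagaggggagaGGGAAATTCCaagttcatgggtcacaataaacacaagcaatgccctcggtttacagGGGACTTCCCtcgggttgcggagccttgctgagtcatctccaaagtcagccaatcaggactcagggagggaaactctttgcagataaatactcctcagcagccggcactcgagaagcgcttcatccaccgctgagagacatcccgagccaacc
Ifit1, chr19:34640639-34640938, plus strand: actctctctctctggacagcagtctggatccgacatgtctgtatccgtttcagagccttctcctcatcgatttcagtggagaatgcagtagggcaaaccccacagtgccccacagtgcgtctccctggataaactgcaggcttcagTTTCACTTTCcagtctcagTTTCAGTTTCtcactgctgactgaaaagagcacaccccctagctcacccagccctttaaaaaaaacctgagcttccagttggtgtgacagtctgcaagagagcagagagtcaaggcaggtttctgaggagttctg
Oas1a, chr5:120907476-120907775, minus strand: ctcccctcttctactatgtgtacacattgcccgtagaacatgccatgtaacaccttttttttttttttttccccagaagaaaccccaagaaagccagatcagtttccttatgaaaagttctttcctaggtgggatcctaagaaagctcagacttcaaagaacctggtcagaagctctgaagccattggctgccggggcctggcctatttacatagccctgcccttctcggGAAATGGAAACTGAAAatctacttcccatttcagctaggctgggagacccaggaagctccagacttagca

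Cxcl10 holds 2 NF-kB-type matches and 1 of the interferon type. Ifit1 and Oas1a each hold 2 of the interferon type, which overlap in Oas1a. Of the 188 genes that rose, 151 matched a window, and 21 of these (13.9%) held the interferon-type letters, against 3.49% of 27025 genes with a window. The 27025 include genes not tested here, since 15621 tested features had a symbol, so these shares are over unlike sets. The C/EBP-type letters stood in 13.9% of the same 151 windows and in 10.8% of all, and the NF-kB-type letters in 23.2% and 20.5%. Among the 35 matched genes that fell, 1 held the interferon-type letters (2.86%), 5 the C/EBP-type (14.3%) and 11 the NF-kB-type letters (31.4%). The C/EBP-type and NF-kB-type shares were thus no lower among the falls than among the rises. These are matches of letters, not evidence of binding.

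The largest single rise was that of the acute phase gene Saa3. Of 17 measured genes of this group 7 rose and 0 fell, against 0.916% of all features that rose, and 16 of the 17 differences were above 0. The list median was 0.41 (0.34 without replicate 5), against 0.01 over all features, and 2 of the 7 calls, Orm1 and Orm2, remained without replicate 5. The list's mean log2 ratio was 2.47 to 3.13 on the 54 µg arrays and 1.01 to 2.02 on the 18 µg arrays, so the groups did not overlap.

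Saa3 encodes a serum amyloid A made by inflamed tissue and macrophages. Its log2 ratio of lung to reference RNA was 2.99, 4.48, 4.42, 4.08 and 5.15 on the 54 µg arrays (replicates 3, 9, 16, 19 and 22) and -1.38, 2.61, -1.16, 0.70 and 1.17 on the 18 µg arrays (replicates 5, 10, 20, 26 and 33). The lowest 54 µg array lay just above the highest 18 µg array, replicate 10, and the 18 µg values were widely spread. The difference was 3.84 (SE 0.99, adjusted p = 0.048), a 14.3-fold rise, and 3.39 without replicate 5 (adjusted p = 0.21). With slide as a block it was 3.82 and missed the threshold (adjusted p = 0.051). On the 4 slides that held both doses it was 4.38, 1.88, 5.41 and 4.45.

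Saa1, the serum amyloid A found in plasma, was at 2.67, 3.94, 4.02, 3.87 and 4.51 with 54 µg and at -0.94, 1.84, 0.05, 0.89 and 1.08 with 18 µg. All 54 µg arrays were above all 18 µg arrays. It rose by 3.22 (SE 0.59, adjusted p = 0.0083), 9.33-fold, and the difference was 2.84 without replicate 5 (adjusted p = 0.060). The near-identical Saa2, which the probe of Saa1 may also read, rose by 2.11 (SE 0.44, adjusted p = 0.015), and stood at 1.83 without replicate 5.

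Orm1 and Orm2 encode orosomucoids, plasma glycoproteins of this response that resemble each other closely. Orm2 was at 3.53, 3.78, 3.38, 2.98 and 4.32 with 54 µg and at 0.17, 1.75, 0.76, 1.71 and 1.84 with 18 µg. The groups did not overlap, with replicate 5 the lowest. Orm2 rose by 2.35 (SE 0.40, adjusted p = 0.0051), 5.10-fold, and by 2.08 without replicate 5 (adjusted p = 0.048). Orm1 rose by 1.97 (SE 0.32, adjusted p = 0.0051), and by 1.82 without replicate 5 (adjusted p = 0.048). Serpina3m, a serine protease inhibitor gene, rose by 1.43 (SE 0.28, adjusted p = 0.012), and its difference was 1.27 without replicate 5. The related Serpina3n, the remaining called gene, rose by 1.03 (adjusted p = 0.044), and its difference was 0.80 without replicate 5. Lcn2, which encodes a protein that binds bacterial iron carriers, did not pass at 0.34 (95% interval -0.37 to 1.05, adjusted p = 0.72). It was already at 3.61 ± 0.28 (SD, n = 5) with 18 µg, above its 2.54 ± 0.89 (SD, n = 5) in the controls.

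**Figure D2:**
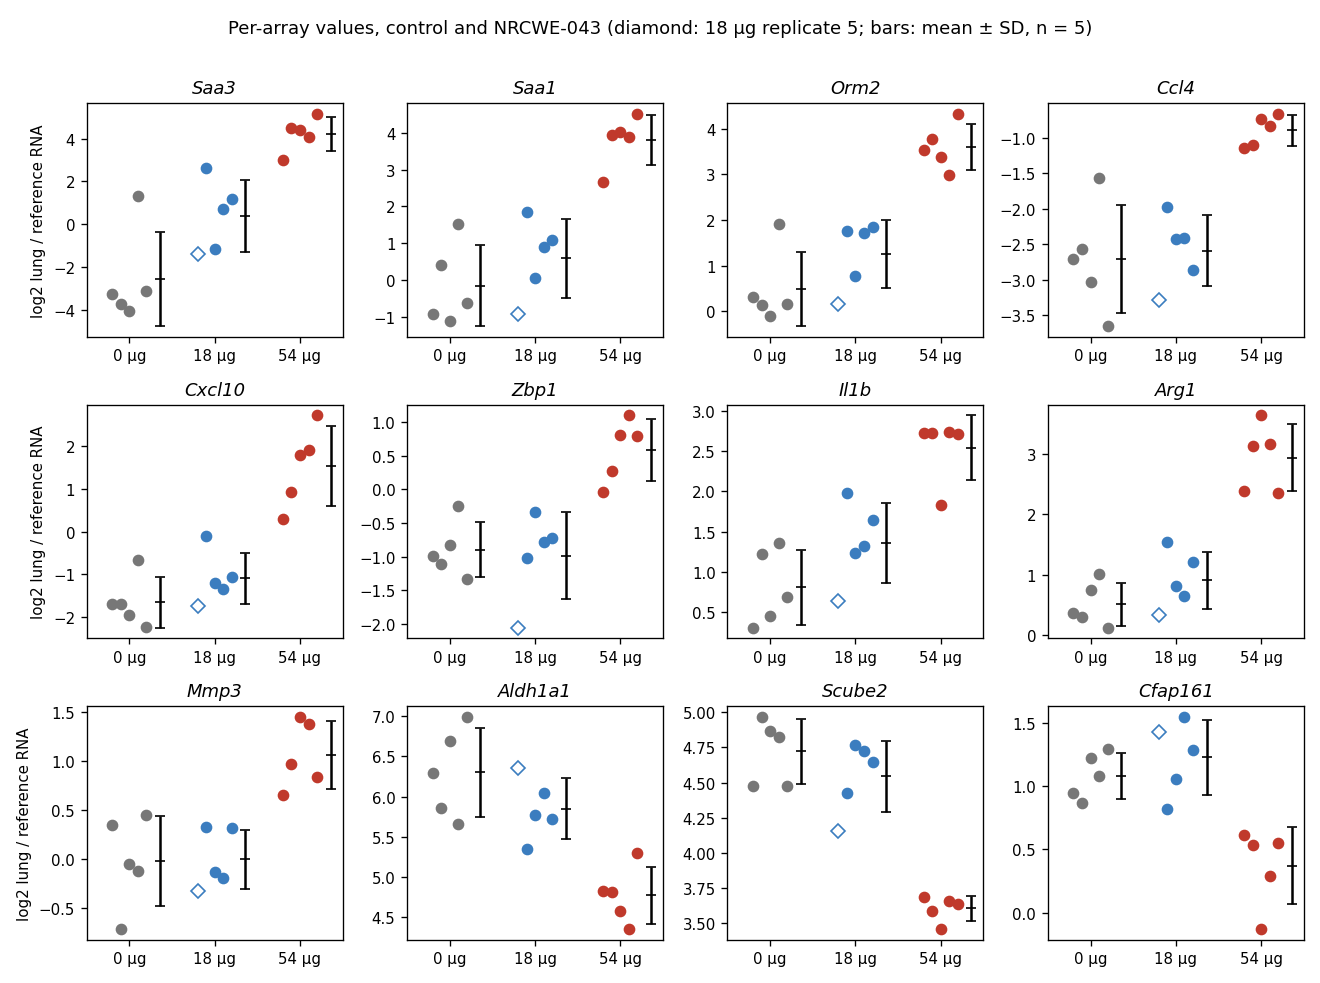
Log2 ratio of lung to reference RNA on every array for 12 genes at 0, 18 and 54 µg of NRCWE-043; points are arrays, bars are the mean ± SD of 5 arrays, and the open diamond is the 18 µg replicate 5. Saa3, Saa1, Orm2, Ccl4, Cxcl10, Zbp1, Arg1 and Mmp3 lie higher on all 54 µg arrays than on any 18 µg array. Aldh1a1, Scube2 and Cfap161 lie lower, and the doses overlap for Il1b.

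Among the chemokines Ccl4, Ccl7, Ccl12, Cxcl10 and Pf4 rose, and the other ligands, the neutrophil attractants Cxcl1 and Cxcl5 among them, did not pass the test. Of 13 CC chemokines 3 rose and 0 fell, against 0.916% of all features that rose. The median difference over the list was 0.98 (0.80 and 0 calls without replicate 5). Of 13 CXC chemokines 2 rose and 0 fell, with a median of 0.34 (0.13 and 0 calls without replicate 5). The mean over the CC chemokines was 1.21 to 1.54 on the 54 µg arrays and 0.11 to 0.91 on the 18 µg arrays.

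Ccl4, a chemokine that attracts monocytes and T cells, was at -1.14, -1.10, -0.74, -0.83 and -0.66 with 54 µg. With 18 µg it was at -3.28, -1.98, -2.42, -2.42 and -2.87, below every 54 µg array. The rise was 1.70 (SE 0.31, adjusted p = 0.0083), 3.24-fold, and the difference without replicate 5 was 1.52 (adjusted p = 0.060). Ccl4 with 18 µg averaged -2.59 ± 0.50 (SD, n = 5), close to the -2.71 ± 0.76 (SD, n = 5) of the controls. The monocyte attractant Ccl7 behaved differently in level, since it stood at -3.70 ± 0.83 (SD, n = 5) in controls, -2.06 ± 0.51 with 18 µg and -0.49 ± 0.38 with 54 µg. Its rise between doses was 1.57 (SE 0.41, adjusted p = 0.048), and 1.46 without replicate 5; with slide as a block it missed the threshold (adjusted p = 0.060). Ccl12, another monocyte attractant, rose by 0.98 (SE 0.24, adjusted p = 0.038), with 0.80 without replicate 5.

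A further 3 attractants of monocytes and eosinophils did not pass. Ccl2, the main ligand of CCR2, was at -2.35, -1.88, -1.40, -1.67 and -1.92 with 54 µg and at -3.45, -2.46, -3.66, -3.55 and -3.37 with 18 µg. The groups did not overlap, yet the difference of 1.45 (95% interval 0.65 to 2.25) gave an adjusted p of 0.057. Ccl8 differed by 1.28 (0.52 to 2.04, adjusted p = 0.079) and the eosinophil attractant Ccl24 by 2.17 (0.82 to 3.51, adjusted p = 0.095). On the 54 µg replicate 22 Ccl24 was at -1.17, while the other 4 arrays of that dose were at 1.01 to 1.52.

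Cxcl10, an interferon-induced ligand of CXCR3 on activated T cells, was at 0.30, 0.93, 1.80, 1.91 and 2.72 with 54 µg and at -1.75, -0.11, -1.21, -1.33 and -1.07 with 18 µg. The groups did not overlap. It rose by 2.63 (SE 0.47, adjusted p = 0.0083), 6.17-fold, with 2.46 without replicate 5 (adjusted p = 0.060). Within the 4 slides it differed by 2.05, 1.04, 3.06 and 4.05. Pf4, the platelet factor 4 gene, rose by 0.81 (SE 0.20, adjusted p = 0.039), with 0.71 without replicate 5. The B cell attractant Cxcl13, at 1.37, was not called (adjusted p = 0.096). Cxcl1 and Cxcl5, neutrophil attractants, differed by 0.19 (95% interval -0.62 to 1.01) and 0.23 (-0.92 to 1.39). Cxcl9, a further CXCR3 ligand, differed by 0.87 (0.15 to 1.58, adjusted p = 0.23) and lay above background on 1 of the 5 arrays at 18 µg.

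The chemokine receptors followed in part. Of 16 receptor genes 2 rose and 0 fell, with a list median of 0.31 (0.28 without replicate 5, with 0 calls). Cxcr2, the receptor of neutrophils for CXC ligands, rose by 1.09 (SE 0.22, adjusted p = 0.013), from 0.99 ± 0.47 to 2.08 ± 0.29 (SD, n = 5), with no overlap. Ccr2, the receptor of inflammatory monocytes, rose by 1.00 (SE 0.24, adjusted p = 0.034). Here the highest 18 µg array, at 1.79, exceeded the lowest 54 µg array, at 1.70. Without replicate 5 the differences were 0.96 and 0.80.

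In the interleukin-1 and interleukin-6 group 2 of 21 genes rose and 0 fell, and the list median was 0.30 (0.13 without replicate 5, with 0 calls). Il1b, a main trigger of the acute phase response, was at 2.72, 2.73, 1.83, 2.73 and 2.71 with 54 µg and at 0.64, 1.98, 1.24, 1.31 and 1.64 with 18 µg. Only the 54 µg replicate 16 fell within the 18 µg range. It rose by 1.18 (SE 0.29, adjusted p = 0.037), 2.27-fold, with 1.00 without replicate 5. Il1rn, which encodes the receptor antagonist, rose by 0.41 (SE 0.09, adjusted p = 0.022), and its values varied little within a dose (SD 0.11 at 54 µg and 0.05 at 18 µg). The decoy receptor gene Il1r2, at 1.20 (adjusted p = 0.056), and Il6, at 0.98 (95% interval 0.44 to 1.53, adjusted p = 0.059), were not called. With slide as a block both were (adjusted p = 0.044 and 0.047), but neither was when replicate 5 was also left out (adjusted p = 0.20 and 0.19). Among 16 feedback and target genes of NF-kB 0 were called, with a median of 0.14.

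All 25 measured interferon-response genes lay above 0 in the difference, and 7 of them rose. The list median was 0.67, and 0.54 without replicate 5, when 0 were called. The list's mean log2 ratio was 0.34, 0.60, 1.11, 1.31 and 1.27 with 54 µg (replicates 3, 9, 16, 19 and 22) and -0.08, 0.43, 0.32, 0.20 and 0.13 with 18 µg. Thus replicates 3 and 9 stood near the 18 µg arrays, and the other 54 µg arrays stood well above them.

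Zbp1, a sensor of Z-form nucleic acids, was at -0.04, 0.27, 0.80, 1.10 and 0.78 with 54 µg and at -2.05, -1.02, -0.34, -0.78 and -0.72 with 18 µg. The groups did not overlap and replicate 5 was the lowest. Zbp1 rose by 1.56 (SE 0.32, adjusted p = 0.013), 2.96-fold, with 1.30 without replicate 5 (adjusted p = 0.082). Oas1a, Oas2 and Oasl2 belong to the oligoadenylate synthetase family, which senses double-stranded RNA. Oas1a rose by 1.54 (SE 0.37, adjusted p = 0.033), Oas2 by 1.22 (SE 0.28, adjusted p = 0.027) and Oasl2 by 1.00 (SE 0.22, adjusted p = 0.026). In each of these 3 genes at least 1 array of one dose lay within the range of the other. The other 2 called genes, the antiviral enzyme gene Rsad2 and the RNA sensor gene Ifih1, rose by 1.12 (adjusted p = 0.048) and 0.67 (adjusted p = 0.033). Ifit1, an antiviral RNA-binding protein gene, rose by 1.04 (SE 0.23, adjusted p = 0.025), and its difference was 1.07 without replicate 5. The ubiquitin-like modifier Isg15 differed by 1.21 (95% interval 0.50 to 1.93, adjusted p = 0.079) and the transcription factor Irf7 by 0.88 (0.38 to 1.37, adjusted p = 0.063), and neither was called.

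**Figure D3:**
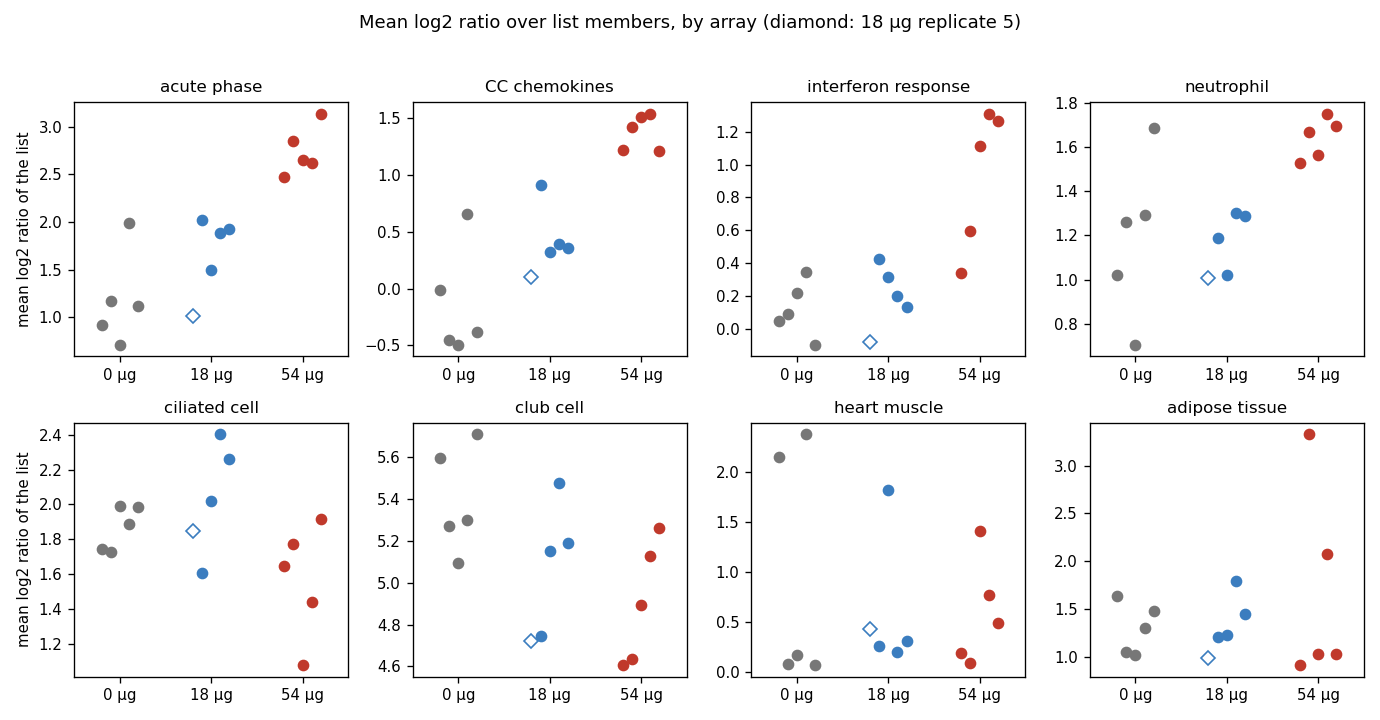
Mean log2 ratio of lung to reference RNA over the tested members of 8 gene lists on every array at 0, 18 and 54 µg; each point is 1 array and the open diamond is the 18 µg replicate 5. The acute phase, CC chemokine and neutrophil means are higher on all 54 µg arrays than on any 18 µg array. The heart muscle mean is high on single arrays of either dose and reaches 2.38 in the controls. The adipose mean is high on the 54 µg replicate 9.

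Complement genes rose in 5 of 19 cases and fell in 0, with a list median of 0.40 (0.36 and 0 calls without replicate 5). C3, the central component of the cascade, rose by 1.14 (SE 0.27, adjusted p = 0.034), from 3.12 ± 0.45 to 4.25 ± 0.21 (SD, n = 5). Cfb, the protease of the alternative pathway, was at 4.43, 5.09, 4.88, 4.93 and 5.28 with 54 µg and at 3.80, 4.29, 3.69, 4.12 and 4.10 with 18 µg, with no overlap. Cfb rose by 0.92 (SE 0.17, adjusted p = 0.0083), and its difference without replicate 5 was 0.87 (adjusted p = 0.060). C1qb, a chain of the recognition molecule of the classical pathway, rose by 1.08 (SE 0.22, adjusted p = 0.013), and C3ar1, the receptor of the C3a fragment, by 0.69 (SE 0.14, adjusted p = 0.014). The fifth gene, Cfp, which encodes properdin and was picked after its values were seen, rose by 1.05 (SE 0.27, adjusted p = 0.044) and missed the threshold with slide as a block (adjusted p = 0.053).

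Some markers of myeloid cells rose. Of 18 monocyte and interstitial macrophage markers 4 rose and 0 fell, with a median of 0.41 (0.32 and 0 calls without replicate 5). They were Adgre1, the macrophage antigen F4/80, by 1.11 (SE 0.25, adjusted p = 0.024), the high-affinity antibody receptor Fcgr1 by 0.92 (SE 0.22, adjusted p = 0.036), and Ccr2 and C1qb, given above. For 21 neutrophil markers, 16 differences lay above 0 and 5 below it, the lowest at -0.56. By test 5 of these markers rose and 0 fell, with a median of 0.38 (0.47 and 0 calls without replicate 5). They were Cxcr2, the metalloproteinases Mmp8 and Mmp9 and the C-type lectin receptors Clec4d, by 1.00 (SE 0.23, adjusted p = 0.028), and Clec4e, by 0.67 (SE 0.16, adjusted p = 0.029). Clec4d and Clec4e also occur on macrophages. The neutrophil mean was 1.53 to 1.75 on the 54 µg arrays and 1.01 to 1.30 on the 18 µg arrays, and 0.71 to 1.68 in controls. Cd177, a surface protein of neutrophils, was at 1.34, 1.33, 1.04, 1.46 and 1.36 with 54 µg and at 0.28, 0.43, 0.45, 0.46 and 0.60 with 18 µg. It rose by 0.86 (SE 0.14, adjusted p = 0.0051), 1.82-fold, and by 0.82 without replicate 5 (adjusted p = 0.048). Lilr4b, a leukocyte immunoglobulin-like receptor gene, rose by 1.11 (SE 0.19, adjusted p = 0.0051), and by 0.96 without replicate 5 (adjusted p = 0.048). In the T and NK cell, B and plasma cell, dendritic cell, eosinophil and mast cell and alveolar macrophage lists 0 members were called, at medians of -0.10 to 0.21.

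Arg1, the arginase of alternatively activated macrophages, was at 2.39, 3.14, 3.65, 3.17 and 2.36 with 54 µg and at 0.33, 1.53, 0.81, 0.64 and 1.21 with 18 µg. The lowest 54 µg array was above the highest 18 µg array. Arg1 rose by 2.04 (SE 0.35, adjusted p = 0.0051), 4.10-fold, and by 1.89 without replicate 5 (adjusted p = 0.048). Within the 4 slides it differed by 2.06, 1.60, 2.60 and 1.72. Of 12 genes of alternative activation 2 rose, Arg1 and Fn1, and 0 fell, with a median of 0.40 (0.33 without replicate 5). The mannose receptor Mrc1 differed by 0.53 (95% interval 0.08 to 0.98, adjusted p = 0.25). Of the list's other uncalled genes, Chil3 differed by 0.40 (adjusted p = 0.76), Retnla by 0.09 (adjusted p = 0.95) and Mgl2 by -0.06 (adjusted p = 0.92). Of the 12 differences 11 lay above 0 and 1 below.

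A minority of the genes for matrix-degrading enzymes and for matrix itself rose. Of 15 genes of the Timp1 and metalloproteinase list 4 rose and 0 fell, with a median of 0.39 (0.37 and 0 calls without replicate 5). The stromelysin Mmp3 was at 0.65, 0.97, 1.45, 1.38 and 0.84 with 54 µg and at -0.33, 0.33, -0.13, -0.20 and 0.31 with 18 µg, without overlap. Mmp3 rose by 1.06 (SE 0.21, adjusted p = 0.012), 2.09-fold, with 0.98 without replicate 5. The collagenase Mmp8 rose by 0.82 (SE 0.21, adjusted p = 0.044), the gelatinase Mmp9 by 0.68 (SE 0.17, adjusted p = 0.038) and Mmp19 by 0.57 (SE 0.15, adjusted p = 0.048). Mmp9 lay above background on 2 of the 5 arrays at 18 µg. The metalloproteinase inhibitor Timp1 was at 1.05, 1.70, 1.74, 1.74 and 0.84 with 54 µg and at -1.15, 1.36, -1.37, -1.31 and -0.79 with 18 µg. The 18 µg replicate 10 lay among the 54 µg arrays, and the difference of 2.07 (95% interval 0.92 to 3.22) was not called (adjusted p = 0.061). Of 23 genes of extracellular matrix 2 rose and 0 fell, at a median of -0.01, and these were fibronectin (Fn1), by 0.86 (SE 0.20, adjusted p = 0.027), and the adhesion protein gene Tgfbi, by 0.94 (SE 0.18, adjusted p = 0.0097). Without replicate 5 their differences were 0.74 and 0.75, and 0 of the list were called.

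Genes of protein folding in the endoplasmic reticulum rose in 3 of 22 cases and fell in 0, with a median of 0.28 (0.23 and 0 calls without replicate 5). Manf, a secreted stress factor of that compartment, rose by 0.82 (SE 0.16, adjusted p = 0.012), and Sdf2l1, a cofactor of the chaperone BiP, by 0.96 (SE 0.22, adjusted p = 0.026). The co-chaperone gene Dnajb11 rose by 0.55 (SE 0.12, adjusted p = 0.024) on its brighter probe, and its other probe stood at -0.04. Calr, which encodes calreticulin, lacked a value on the 54 µg replicate 16 and differed by 0.52 (adjusted p = 0.089). Of 23 cell cycle genes 2 rose, the replication licensing factors Mcm3, by 0.82 (SE 0.21, adjusted p = 0.041), and Mcm5, by 0.63 (SE 0.16, adjusted p = 0.039), and 0 fell. The list median was 0.30 (0.35 and 0 calls without replicate 5), and Mcm5 missed the threshold with slide as a block (adjusted p = 0.053).

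Other genes among the 15 largest rises were Mefv, S100a4 and B430306N03Rik. Mefv encodes pyrin, an inflammasome sensor of myeloid cells, and rose by 1.55 (SE 0.30, adjusted p = 0.011) on its brighter probe, while its other probe differed by 0.39. S100a4, a calcium-binding protein gene of motile and myeloid cells, was at -2.85, -2.46, -2.40, -1.63 and -2.36 with 54 µg and at -4.60, -4.20, -3.54, -3.54 and -3.28 with 18 µg. It rose by 1.49 (SE 0.29, adjusted p = 0.012), 2.82-fold, with 1.30 without replicate 5. B430306N03Rik rose by 1.46 (SE 0.27, adjusted p = 0.0083) on one probe and differed by 0.42 on the other.

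**Figure D4:**
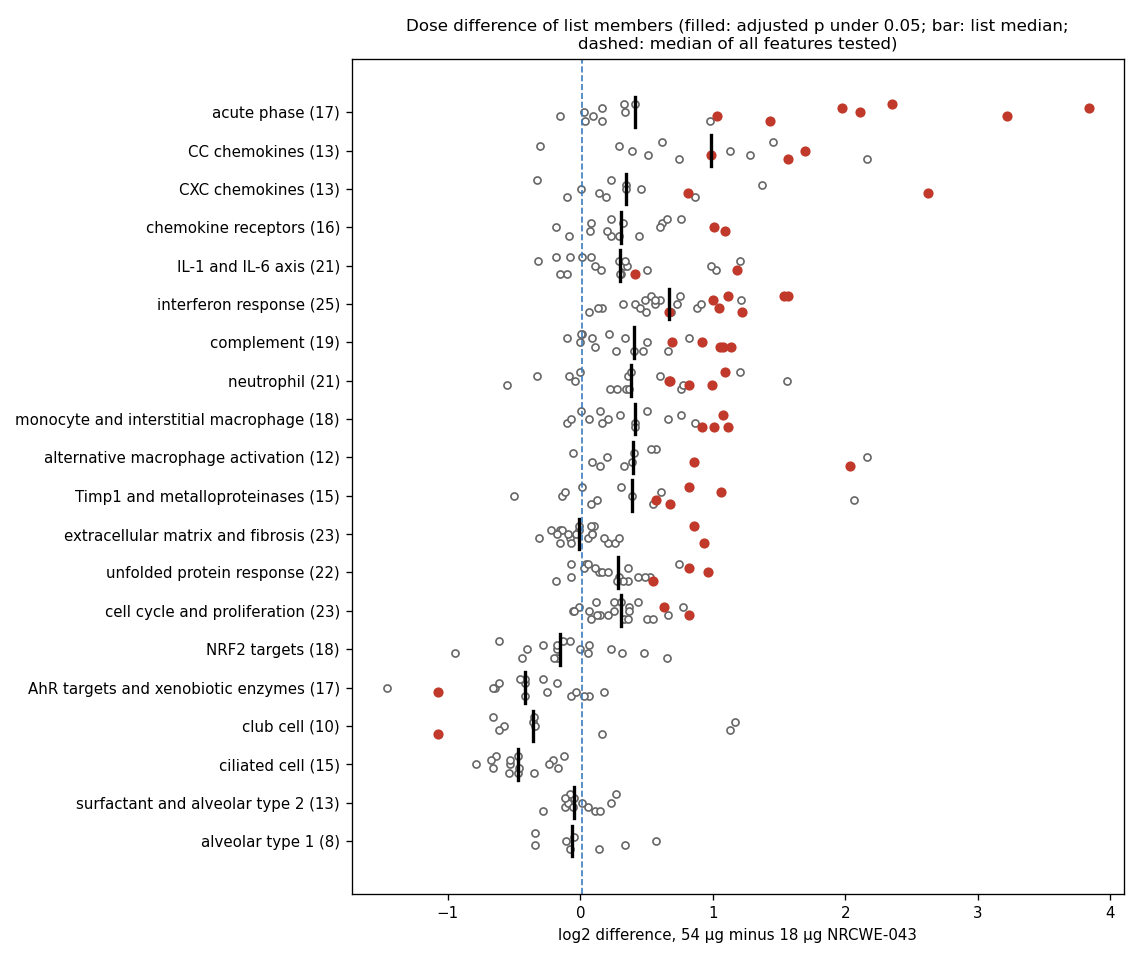
Log2 difference between 54 and 18 µg for every tested member of 20 gene lists, with the number tested in brackets; filled points passed an adjusted p of 0.05, black bars are list medians and the dashed line is the median of all features. Medians of the inflammatory lists lie to the right of the dashed line, and all 15 ciliated cell genes lie to its left with 0 of them called.

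Among the features with a symbol that fell, Vps51 and Aldh1a1 reached 2-fold. Aldh1a1, a retinal dehydrogenase of club cells that also detoxifies aldehydes, was at 4.82, 4.82, 4.58, 4.36 and 5.30 with 54 µg and at 6.36, 5.35, 5.77, 6.04 and 5.73 with 18 µg. The highest 54 µg array stayed just below the lowest 18 µg array. It fell by 1.07 (SE 0.22, adjusted p = 0.014), and the difference without replicate 5 was -0.95 (adjusted p = 0.083). Aldh1a1 was the only called member of both the list of xenobiotic enzymes (1 of 17 fell, 0 rose, median -0.42, and -0.36 without replicate 5) and the club cell list (1 of 10 fell, 0 rose). The club cell median was -0.36, and -0.46 without replicate 5, but 0.12 when the arrays were scaled to a common spread. The fall of Aldh1a1 lay beside 0.239% of all features that fell. The club cell secretoglobin Scgb1a1 differed by -0.34 (95% interval -0.74 to 0.06, adjusted p = 0.44), and the difference was 0.11 with median centring and 0.34 with scaling. Cyp2f2, a club cell cytochrome, differed by -0.66 (-1.16 to -0.16, adjusted p = 0.18), and the dioxin-induced Cyp1a1, above background on 1 of the 5 arrays at 54 µg, by -0.28 (-0.78 to 0.21).

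Scube2, a secreted protein that takes part in hedgehog signalling, gave the smallest adjusted p without replicate 5. It was at 3.68, 3.58, 3.46, 3.66 and 3.64 with 54 µg and at 4.15, 4.43, 4.77, 4.72 and 4.64 with 18 µg. In this gene replicate 5 was the 18 µg array closest to the 54 µg group, so the fall grew without it. Scube2 fell by 0.94 (SE 0.16, adjusted p = 0.0051), and the difference was -1.04 without replicate 5 (adjusted p = 0.0060). With control arrays at 4.72 ± 0.23 (SD, n = 5), the 18 µg mean of 4.54 ± 0.25 lay near control and the 54 µg mean of 3.60 ± 0.09 lay below it.

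Among the 15 largest falls was Cfap161, a cilia and flagella associated gene. It was at 0.61, 0.54, -0.13, 0.29 and 0.55 with 54 µg and at 1.43, 0.82, 1.05, 1.55 and 1.28 with 18 µg, with no overlap. Cfap161 fell by 0.85 (SE 0.20, adjusted p = 0.032), and its difference was -0.80 without replicate 5. The controls lay at 0.86 to 1.29. Of the other large falls, Spaca9 fell by 0.86 (SE 0.20, adjusted p = 0.030) and Lrrc51 by 0.82 (SE 0.15, adjusted p = 0.0083). In the list of 15 ciliated cell markers, 15 differences were below 0 and 0 were called, at a median of -0.47 (-0.50 without replicate 5). The largest by test were the tektin Tekt4, at -0.68 (adjusted p = 0.063), the radial spoke gene Rsph1, at -0.64 (adjusted p = 0.082), and the dynein genes Dnaic1, at -0.54 (adjusted p = 0.11), and Dnaic2, at -0.66 (adjusted p = 0.14). The list mean was 1.08 to 1.91 on the 54 µg arrays, 1.60 to 2.40 on the 18 µg arrays and 1.73 to 1.99 in controls, so the doses overlapped. On the Cy5 channel alone 5 of the 15 were called lower, on the deposited values 1 was, and in other scalings 0 were. With slide as a block 1 of the 15 was called lower, beside 156 of all 25534 features.

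The largest fall with a symbol was that of Vps51, a subunit of a vesicle tethering complex, at -1.35 (SE 0.30, adjusted p = 0.025). It was at 1.62, 1.84, 1.17, 1.09 and 2.04 with 54 µg and at 3.57, 2.01, 2.67, 2.96 and 3.32 with 18 µg, so that replicate 10 lay just below the highest 54 µg array. The monocarboxylate transporter gene Slc16a11 fell by 0.91 (SE 0.20, adjusted p = 0.022), the peroxisomal oxidase gene Acox2 by 0.81 (SE 0.19, adjusted p = 0.033), and the inositol trisphosphate kinase gene Itpka by 0.96 (SE 0.24, adjusted p = 0.038). The receptor kinase Tyro3, which takes part in clearing dead cells, fell by 0.80 (SE 0.20, adjusted p = 0.038) on one probe, and its other probe stood at -0.17. Reep6, 1110017D15Rik, 1700088E04Rik and Lrrc26 fell by 0.85 to 0.99, at adjusted p of 0.025 to 0.048. Nr1h2, a nuclear receptor for oxysterols and the only called gene of that list of 10, fell by 0.32 (SE 0.08, adjusted p = 0.033), and its difference was 0.07 with median centring.

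Stress genes that respond to oxidants or metals did not pass. Hmox1, the heme oxygenase, was at -0.60, -0.64, -0.12, -0.82 and -0.25 with 54 µg and at -1.36, -0.62, -1.45, -0.91 and -0.50 with 18 µg, so the doses overlapped. The difference was 0.48 (95% interval -0.16 to 1.12, adjusted p = 0.51), while the controls averaged -3.20 ± 1.06 (SD, n = 5). Of 18 NRF2 targets 0 were called, at a median of -0.15 (-0.08 without replicate 5), which was 0.23 with median centring. Mt2, a metallothionein, differed by 0.94 (0.17 to 1.72, adjusted p = 0.23). The anion exchanger gene Slc26a4 differed by 0.97 (-0.54 to 2.47, adjusted p = 0.60), the clock genes Nr1d1 and Dbp by -0.62 (-1.51 to 0.26) and -0.67 (-1.95 to 0.61), and the surfactant gene Sftpc by -0.28 (-0.74 to 0.18).

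Differences from the control arrays are given as a description, since they share arrays with the dose comparison. Of the 234 features that rose, 234 were above the control mean with 54 µg, whereas with 18 µg 90 were above it and 144 below. Over all features, 51.5% lay above the control mean with 54 µg and 50.1% with 18 µg. The features were chosen for high values at 54 µg and low values at 18 µg, and without replicate 5 the 18 µg counts turned to 137 above and 97 below, at a median of 0.05. With replicate 5 the median difference from control was -0.06 with 18 µg, and it was 0.62 with 54 µg. Of the 61 that fell, 60 were below control with 54 µg, and with 18 µg 12 were below and 49 above, at medians of -0.47 and 0.16; without replicate 5 the 18 µg counts were 16 and 45. Genes of both kinds stood among the rises. Saa3 was 2.96 above control with 18 µg and 6.80 with 54 µg, and Ccl7 was 1.64 and 3.21 above it. Zbp1 (-0.08 and 1.48), Mmp3 (0.02 and 1.08), C3ar1 (0.00 and 0.69) and Manf (0.01 and 0.83) had 18 µg means close to the control mean. Among the controls, replicate 29 stood apart for Saa3, at 1.31, while the other controls were at -4.06 to -3.11.

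The same step in dose was set against that of the other materials to ask whether NRCWE-043 differed from them. In limma the interaction of dose and material called 0 features against NRCWE-044 (0%, with 836 at an unadjusted p under 0.05, or 3.27%) and 0 against NRCWE-045 (0%, with 917, or 3.59%). For NRCWE-044 the dose step called 1664 features (6.52%, 1255 higher and 409 lower). For NRCWE-045 it called 0 (0%, with 975 at an unadjusted p under 0.05). These steps share no lung samples, but all share the reference RNA, slides and the estimate of spread. 212 features were called for NRCWE-043 and NRCWE-044 both, which is 71.9% of the NRCWE-043 calls and 12.7% of the NRCWE-044 calls, and all 212 had the same direction.

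Of the 234 features that rose with NRCWE-043, 233 were above 0 in the NRCWE-044 step and 225 in the NRCWE-045 step, against 56.3% and 49.8% of all features. Of the 61 that fell, 57 and 59 were below 0. The median step over the features that rose was 0.69 with NRCWE-043, 0.70 with NRCWE-044 and 0.27 with NRCWE-045, and over those that fell -0.62, -0.49 and -0.18. Because these features were selected on the NRCWE-043 step, a smaller value in another material is a description only. Without the 4 arrays of the series that correlate least with the rest (18 µg replicates 5 and 10 of NRCWE-043 and 6 and 23 of NRCWE-044), 232 of the 234 and 59 of the 61 kept those directions in NRCWE-044, and the NRCWE-043 step called 172 features.

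Saa3 gave steps of 3.84, 5.71 and 3.18 (SE 0.99 each) for NRCWE-043, NRCWE-044 and NRCWE-045. Cxcl10 gave 2.63, 3.28 and 1.57 (SE 0.47 each), and Arg1 2.04, 2.42 and 1.03 (SE 0.35 each). These 3 genes are in the same direction for all materials, with the smallest step for NRCWE-045. C1qb gave 1.08, 0.77 and 0.03 (SE 0.22 each). Its interaction with NRCWE-045 was 1.05 (SE 0.31, unadjusted p = 0.0018, adjusted p = 1.00), so it did not pass over all features.

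**Figure D5:**
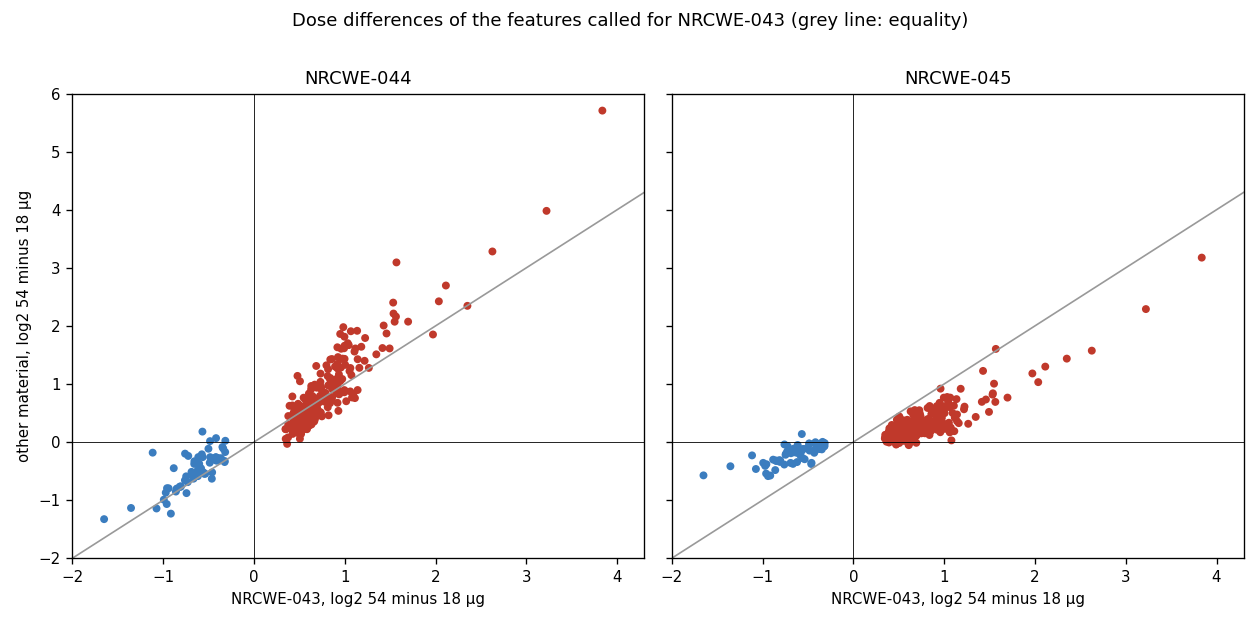
Dose difference (54 minus 18 µg, log2 scale) of the 295 features called for NRCWE-043, on the horizontal axis, against the dose difference of the same features for NRCWE-044 (left) and NRCWE-045 (right); red features rose and blue features fell with NRCWE-043, and the grey line is equality. Nearly all points lie on the same side of 0 in both materials, and 0 features were called in either interaction test.

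The genes with the smallest interaction p-values are given as values. Against NRCWE-044, the antigen-loading chaperone Tapbp had a step of 0.04 with NRCWE-043 and 0.60 with NRCWE-044, a difference of -0.56 (SE 0.13, unadjusted p = 0.00016). For the B cell survival factor gene Tnfsf13b these values were 0.26, 1.14 and -0.88 (SE 0.22). The chaperone Dnajb1 and the oxidoreductase Nxn went the other way, with differences of 0.89 (SE 0.27) and 0.77 (SE 0.22). Against NRCWE-045, the differences were 0.63 (SE 0.17) for the transcription factor Mef2a, 0.68 (SE 0.20) for the chromatin protein Hmgb2 and -0.56 (SE 0.17) for the cilium gene Nphp4. All of these had an adjusted p of 1.00 in limma. Nphp4 itself fell with NRCWE-043, by 0.61 (SE 0.12, adjusted p = 0.012), with -0.53 without replicate 5.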

How the data were processed

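The authors deposited scanner files of 2-colour arrays with Cy5 (lung) and Cy3 (universal mouse reference) spot intensity, extracted with Feature Extraction 11.0.1.1 per the file headers, and log2 ratios (normalization not given in the sources used here). From 200 ng of RNA per array, median intensities were corrected with normexp (offset 50) and loess in limma 3.58.1 (R 4.3.3). Spots marked as outliers were left out. A probe was tested where Cy5 was well above background on 3 or more arrays of any group, and the brightest stood for its gene, named by accession through RefSeq (GRCm38.p6; 27235 of 55681 probes matched a symbol). The 35 arrays were fitted together with eBayes, and p-values were adjusted by Benjamini-Hochberg over 25534 features. Intervals are 95%, and 5 arrays per group limit precision. The procedure was tested on simulated data, drawn independently for each array with no outlying array and no slide effect. That test therefore cannot show how calls depend on a single array. The 7 slides, scanned on 6 days, were a block in alternatives. Named genes were the 15 largest called in each direction, up to 4 per list, 25 fixed genes and 3 per direction of each interaction, of which the text prints a part and some are not reported here; Cd177, Lilr4b, Cfp, Rsad2, Ifih1 and Serpina3n were picked after their values were seen. Members and lists were chosen with earlier results of these data known. Alternatives changed background, normalization, filter, probes, slides, arrays and variance model.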

Additional observations from a re-analysis of the deposited data

Results flagged for a closer look

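In groups of 5 arrays, 31 of 330 groups of values (99 genes and 11 list means at 0, 18 and 54 µg) held a single array far from the other 4 by Dixon's criterion, which chance flags in about 1 of 20. The 18 µg replicate 5 was that array in 7 cases, for Saa2 at -0.28, Ccl12 at -0.012, Fn1 at -2.55, Fcgr1 at -0.41, Dnajb11 at -0.20, Mcm3 at -1.15 and Acox2 at 1.98. The 18 µg replicate 10 was it in 4, for Ccl2 at -2.46, Cxcl5 at -0.15, Timp1 at 1.36 and 1110017D15Rik at 3.59. Replicate 26 was at -0.15 for Il1rn, and replicate 20 at 1.82 for the heart muscle mean. Among the 54 µg arrays, replicate 3 was at 2.45 for Ccl8, 6.88 for Scgb1a1 and 4.23 for Tgfbi. Replicate 22 was at -1.17 for Ccl24, 3.46 for Cxcl9 and 2.74 for Il1r2, replicate 19 at 0.74 for Pf4 and replicate 16 at 1.83 for Il1b. Among the controls, replicate 29 was at 1.31 for Saa3, 1.31 for Orm1, 1.91 for Orm2, -2.25 for Ccl7 and -0.22 for Timp1. Replicate 7 was at -0.55 for Ifit1 and -0.29 for Fcgr1, replicate 30 at 7.35 for Cyp2f2 and 2.31 for Cyp1a1, and replicate 2 at -0.54 for the skeletal muscle mean.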

How the results depend on the processing

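In place of the 295 calls of the NRCWE-043 dose step, 6 were made with median centring, 759 on the Cy5 channel alone, 679 and 699 with slide as a fixed or random block (correlation within slide 0.185), 39 on the 4 slides with both doses, 28 on the 10 arrays alone, 638 with array weights and 192 at 1.5-fold or more. Leaving out each array in turn gave 7 to 566 calls. In alternatives chosen after seeing the data, 28 remained without the 18 µg replicates 5 and 10, 172 (75 higher, 97 lower) without the 4 arrays of lowest correlation, and 4 with slide as a block without replicate 5. Background, Aquantile, marked spots, probe filter, probe averaging, variance model and use of the 30 treated arrays gave 202 to 350 calls, the deposited values 351 and scaling to a common spread 442. Both interactions called 0 under every setting that was run. Of 65 called genes among 99 examined one by one, 3 to 65 kept the call in an alternative. A single called gene changed sign, Nr1h2, at 0.069 with median centring. Among uncalled genes, Scgb1a1 was at 0.11 and Sftpc at 0.15 with median centring, Scgb1a1 at 0.34, Sftpc at 0.43 and Cxcl1 at -0.072 with scaling, and Sftpc at 0.14 on Cy5 alone. Leaving out single arrays gave -0.0087 (without 54 µg replicate 3) to 0.73 for Cxcl5 and -0.023 to 0.089 for Tapbp, which was below 0 without 54 µg replicate 22 or, at -0.0092, without 18 µg replicate 20. The causes were not tested. By replicate number, no paired analysis was possible because the numbers in the labels differ between all groups; slides shared by both doses served as blocks instead. Genes near background, such as Cxcl9, Mmp9 and Cyp1a1, have uncertain differences, and 5 arrays per dose limit all of them.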

Other observations

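Lists not described above held no called genes in the main fit, and their levels were not tested as lists. With slide as a block, 523 of all 25534 features rose, and 4 features in either direction were called when replicate 5 was also left out. With all arrays, 3 of 23 cholesterol synthesis and 2 of 20 hypoxia and glycolysis genes rose in this fit. So did 1 of 15 heat shock and 1 of 17 fibroblast, pericyte and smooth muscle genes. Some medians lay near that of all features, such as 0.02 for fatty acid synthesis, -0.03 for p53 targets, -0.03 for hypoxia and glycolysis and -0.05 for clock genes. Of 14 genes of MHC class I presentation, which load peptides for T cells, 13 differences lay above 0, at a median of 0.25 (0.20 without replicate 5). The cholesterol synthesis enzymes had 18 of 23 differences above 0, at a median of 0.16 on both sets of arrays. The median was 0.30 for 12 genes of mucous airway cells and 0.14 without replicate 5, and 0.26 and 0.20 for 8 genes of the Ly6 family of surface proteins. Glucocorticoid targets stood at -0.07 and the heat shock chaperones at 0.09. Over all 25534 features, 13369 differences lay above 0 and the median was 0.01.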
